A study of Mus musculus with 2 samples.

Results

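The 8 genes described here were listed as factors of the naive pluripotent state of mouse embryonic stem cells (ESCs). They are Esrrb, Tfcp2l1, Tbx3, Prdm14, Zfp42, Lin28a, Stat3 and Sall4, and whether each is particular to that state was not measured. They were taken by name from the 22367 protein-coding genes of GENCODE M1 on mm9, where Tfcp2l1 stands under its older symbol Tcfcp2l1. For each gene, the gene body and 100 kb on each side were searched for CTCF peaks, which gave 8 regions of 1947 kb in all with 76 of the 33756 peak summits on chromosomes 1 to 19, X and Y. CTCF was mapped by chromatin immunoprecipitation and sequencing (ChIP-seq) in R1/E ESCs that carried a stably integrated BAC, from which CTCF was expressed as a C-terminal fusion to a LAP cassette containing GFP. One library was made with a goat antibody raised against eGFP, and the other, from the same tagged cells, with a goat IgG isotype control that the labels also call input DNA. Both came from cells grown on gelatine with serum and LIF, fixed with formaldehyde at 1%, and their chromatin was sheared to fragments averaging 500 bp before precipitation with 5 ug of antibody. Antibiotic-resistant clones were sorted for GFP, the endogenous untagged CTCF was still present, and no untagged line, other cell type or second preparation was compared. The CTCF library holds 8391191 tags and the control 7988889. Neither has a replicate, so every interval covers counting error between these libraries and not the spread between cultures. Cell type markers could not be read, since no RNA was measured.

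CTCF is a zinc finger protein that binds an asymmetric DNA motif and acts at insulators and at the bases of chromatin loops together with cohesin. Since the motif has a direction, a pair of sites can point toward each other or apart, and loops are known to form mostly between sites whose motifs face each other. The naive state of ESCs is held by a network of transcription factors fed by the cytokine LIF through Stat3. Esrrb, Tfcp2l1 and Tbx3 are DNA-binding factors of this network, Prdm14 represses genes of the primed state, Zfp42 (also called Rex1) is a marker of naive cells, Lin28a binds RNA, and Sall4 is a zinc finger factor. The question asked of the 2 libraries was where CTCF sat around these genes.

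The sequences below are those at the nearest summit on each side of a gene where a motif was found, and at the tallest summits of Esrrb and Tbx3, because they show which form of the CTCF motif lies next to each gene. They are read from mm9 on the strand of the motif, 5′ to 3′. Capitals mark the 19 bases matched by the CTCF matrix, whose consensus is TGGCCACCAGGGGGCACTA, and lower case the 20 bases on each side.
Esrrb nearest upstream (chr12:87685287-87685345, minus strand): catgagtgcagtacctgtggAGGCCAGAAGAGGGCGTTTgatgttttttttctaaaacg
Esrrb tallest, intron (chr12:87849718-87849776, plus strand): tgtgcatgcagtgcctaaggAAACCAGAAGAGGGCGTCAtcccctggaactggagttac
Esrrb nearest downstream (chr12:87900005-87900063, plus strand): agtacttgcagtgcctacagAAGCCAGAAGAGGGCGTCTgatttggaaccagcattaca
Tfcp2l1 nearest upstream (chr1:120461310-120461368, plus strand): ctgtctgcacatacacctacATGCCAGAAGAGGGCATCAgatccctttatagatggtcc
Tfcp2l1 nearest downstream (chr1:120656316-120656374, minus strand): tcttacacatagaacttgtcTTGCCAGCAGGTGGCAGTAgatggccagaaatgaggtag
Tbx3 nearest upstream (chr5:120021836-120021894, minus strand): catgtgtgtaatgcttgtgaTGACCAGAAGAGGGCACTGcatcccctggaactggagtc
Tbx3 nearest downstream (chr5:120141309-120141367, minus strand): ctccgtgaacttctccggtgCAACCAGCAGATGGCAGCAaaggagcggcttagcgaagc
Tbx3 tallest, downstream (chr5:120191299-120191357, plus strand): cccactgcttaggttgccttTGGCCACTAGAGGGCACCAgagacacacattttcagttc
Prdm14 nearest upstream (chr1:13124530-13124588, minus strand): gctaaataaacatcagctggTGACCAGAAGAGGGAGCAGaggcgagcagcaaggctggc
Zfp42 nearest upstream (chr8:44414191-44414249, minus strand): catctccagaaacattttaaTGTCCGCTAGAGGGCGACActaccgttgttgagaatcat
Lin28a nearest upstream (chr4:133592030-133592088, plus strand): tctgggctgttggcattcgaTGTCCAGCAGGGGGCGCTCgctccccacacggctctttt
Stat3 nearest downstream (chr11:100698776-100698834, plus strand): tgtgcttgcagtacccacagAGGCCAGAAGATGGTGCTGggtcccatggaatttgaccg
Sall4 nearest downstream (chr2:168568370-168568428, minus strand): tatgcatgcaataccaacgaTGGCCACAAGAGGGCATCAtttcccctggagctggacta
In 6 of these 13 sequences the capitals hold the letters CAGAAGAGG at motif positions 5 to 13. They are the 3 sequences of Esrrb, the upstream ones of Tfcp2l1 and Tbx3, and that of Prdm14. The other 7 sequences have different letters at these positions.

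CTCF summits were found in every one of the 8 regions, from 5 around Tfcp2l1, Prdm14 and Zfp42 to 16 around Tbx3. Of the rest, 10 lay around Sall4, 11 around Esrrb, 11 around Lin28a and 13 around Stat3. Corrected for the size of the region, the density ran from 1.94 summits per 100 kb at Tfcp2l1 to 7.48 at Tbx3, with a median of 3.80 over the 8 genes against 2.26 over all protein-coding genes (quartiles 0.948 and 3.78). The density exceeded the median of all genes at 7 of the 8 genes, and Tfcp2l1 was the exception. Tbx3 stood above 98.1% of all genes, Stat3 and Lin28a above 88.1%, and Sall4 above 83.9%, whereas Esrrb, Zfp42, Prdm14 and Tfcp2l1 lay between the 44.4% and the 65.4% point. When peaks needed a score of at least 100, Tbx3 kept 11 of its 16 summits and Lin28a 8 of 11, but Stat3 kept 4 of 13 and Sall4 4 of 10. The GC content of the regions was 48.8% for Sall4, 48.1% for Lin28a, 48.0% for Tbx3 and 47.7% for Esrrb, against a median of 44.3% for all genes. Stat3, the second densest, and Tfcp2l1, the least dense, both had 46.4%, and Prdm14 and Zfp42 had 45.0% and 41.6%. The part of base composition in the density was not tested.

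**Figure D1:**
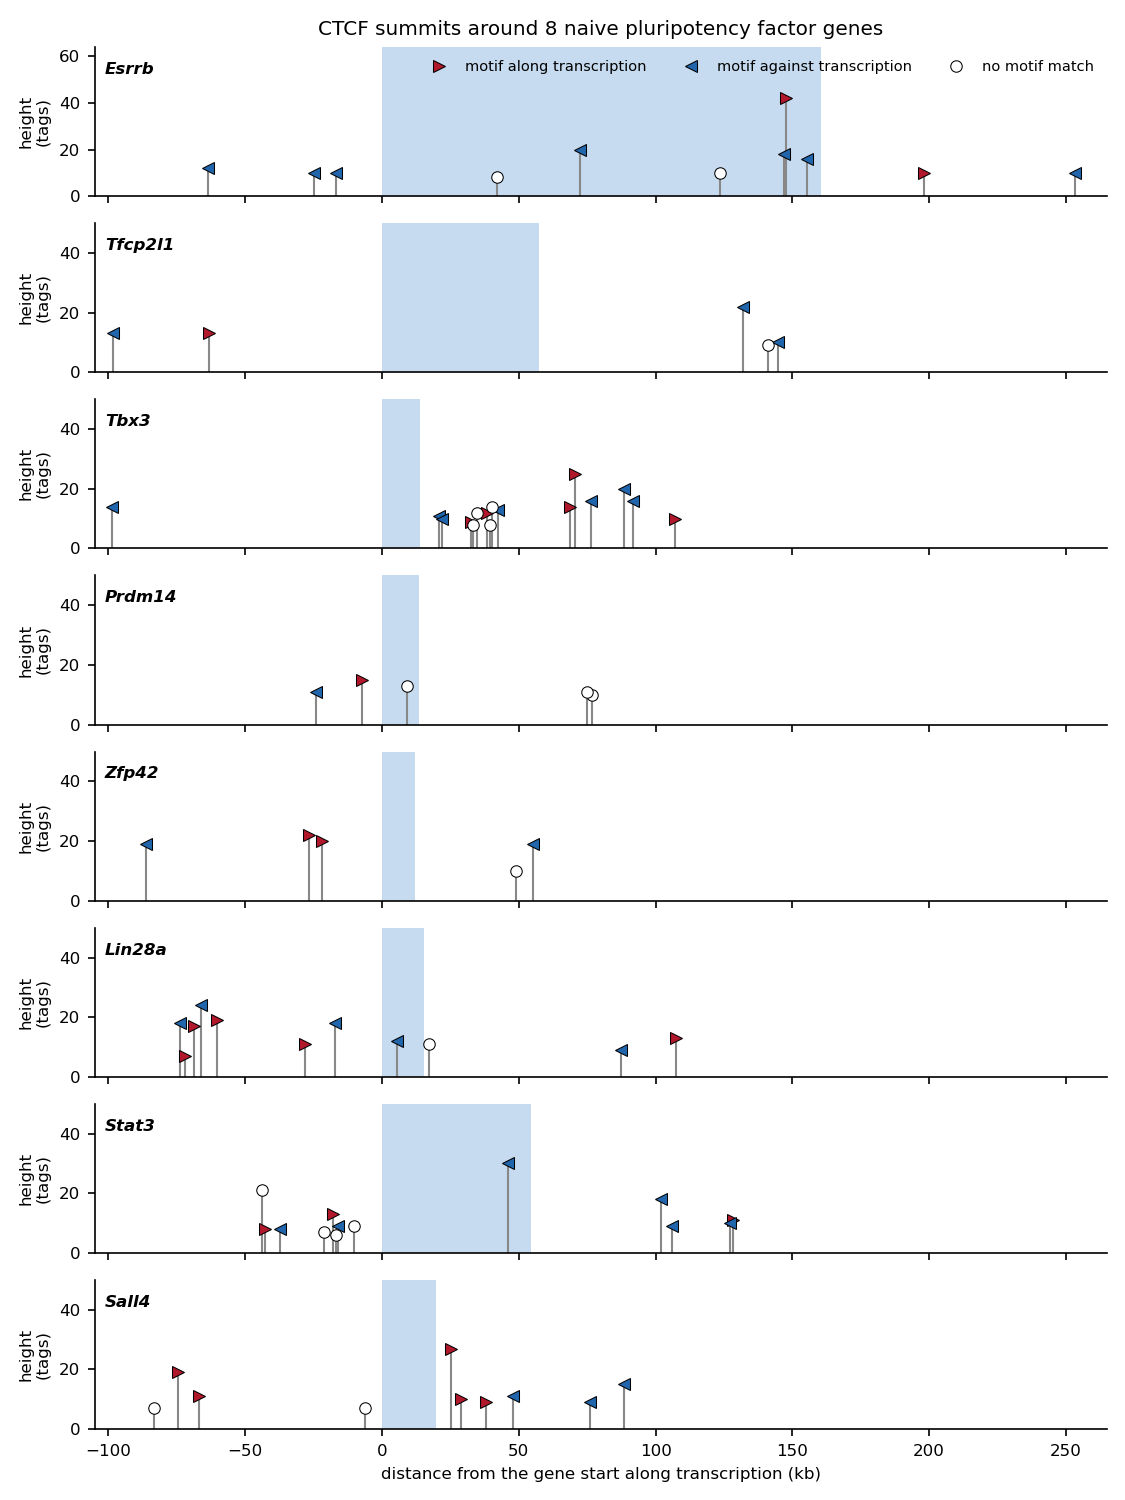
Deposited CTCF summits in the 8 regions, with the distance from the gene start along transcription in kb on the x axis and the summit height in tags on the y axis; shading marks the gene body and triangles the direction of the motif. Tbx3 has 15 of its 16 summits downstream, Esrrb has 6 inside the gene, and Tfcp2l1 has none within 63311 bp of either edge.

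The strength of the 76 summits was close to that of all summits. Their height, the number of overlapping tags at the summit, ranged from 6 to 42 with a median of 11.5, against 13 for all summits. The peak score, which rises with the negative logarithm of the peak caller's p-value, had a median of 117.4, against 117 over all summits. Within 150 bp of the summits the CTCF library held 1185 tags and the IgG library 72, and their ratio after scaling by depth was 15.7 (exact 95% interval 12.4 to 20.2), beside 14.3 (14.2 to 14.5) at all summits. These ratios describe sites that were called on the same tags. At 28 of the 76 summits (36.8%) no IgG tag was counted, a share of 36.2% over all summits. By annotation 47 of the 76 summits lay between genes, 26 in introns, 2 in exons annotated as neither coding nor UTR, and 1 in a UTR, that of Ptrf in the Stat3 region.

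No deposited peak reached within 1 kb of the start of any of the 8 genes, where 10.1% of all protein-coding genes have one. The tag counts there were low. For Esrrb, a nuclear receptor, 2 CTCF and 7 IgG tags lay within 1 kb of the start, for Tfcp2l1, a CP2-family factor downstream of LIF, 8 and 5, and for Tbx3, a T-box factor, 12 and 1. Around the start of Prdm14 there were 7 and 7 tags, and around that of Zfp42 9 and 5. Lin28a had 6 and 4, Stat3 7 and 4, and Sall4 16 and 5. Before scaling by depth, the CTCF count was the higher one at 6 of the 8 starts, equal at Prdm14 and lower at Esrrb. The share of all genes with a higher CTCF count was not counted, but their median counts were 7 CTCF and 5 IgG tags. Pooled and scaled by depth, the 8 starts had a ratio of 1.68 (1.11 to 2.57), against 1.69 over all protein-coding genes.

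**Figure D2:**
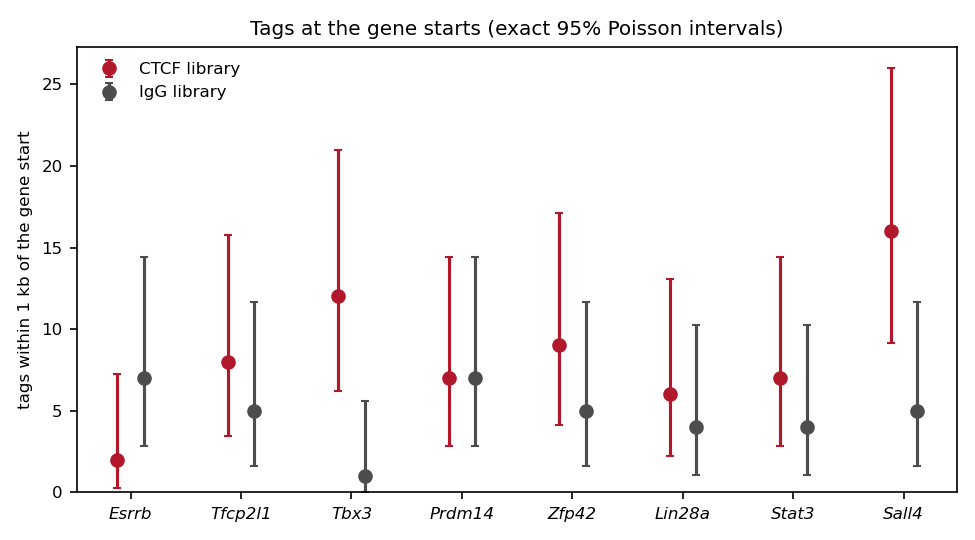
Tags within 1 kb of each gene start (y axis) in the CTCF and the IgG library for the 8 genes (x axis), with exact 95% Poisson intervals as bars. The intervals of the libraries are apart at Tbx3, with 12 against 1 tags, and overlap at the other 7 genes. The share of all genes with intervals apart was not counted, and 10.1% of all genes passed the exact test as higher.

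Tbx3 was the 1 gene of the 8 that passed the test at its start, where 10.1% of all protein-coding genes passed in the same direction and 0.197% in the opposite one. Its depth-scaled ratio was 11.4 (1.69 to 488), with an adjusted p of 0.0376 in the exact binomial test, two-sided, with Benjamini-Hochberg adjustment over all 22367 genes. The test compares 2 libraries and rests on a single IgG tag. With windows of 500 bp on each side the adjusted p was 0.0733, and among genes without a peak in the window 0.151. Sall4 had a ratio of 3.05 (1.07 to 10.6) and an adjusted p of 0.178 in the same exact test. The remaining ratios ran from 0.272 (0.0276 to 1.43) for Esrrb to 1.71 (0.516 to 6.51) for Zfp42, and their adjusted p in that exact test lay between 0.418 and 1, so that a difference was not detectable at this depth. The median ratio of the 8 genes was 1.60, against 1.43 over all genes. A match to the CTCF matrix lay within 1 kb of the start in Tfcp2l1 and Lin28a, 1 in each, and 28.3% of all genes have such a match.

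Alternative transcript starts were examined because Esrrb, Tbx3, Stat3 and Sall4 have several. At the Esrrb starts 60527, 60766 and 109000 bp into the gene, 7, 5 and 7 CTCF tags stood beside 4, 3 and 3 IgG tags. A Sall4 transcript that begins 914 bp inside the gene had 10 CTCF tags and 1 IgG tag, and those at 742 and 2697 bp had 11 against 3 and 12 against 7. No protein-coding transcript of Sall4 began at the gene start used above, and the closest was that at 742 bp. The Tbx3 start at 10082 bp had 7 against 3. None of the annotated protein-coding transcript starts of the 8 genes had a peak within 1 kb.

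The nearest summit outside the gene lay at a median of 17008 bp upstream and 37292 bp downstream of the 8 genes, beside 30044 and 29811 bp for all genes. Sall4 was the most closely flanked, at 6324 bp upstream and 5442 bp downstream, and its interval between summits spanned 31.4 kb. Lin28a followed with 34.4 kb, from 17288 bp upstream to 1572 bp downstream. That downstream summit has a score of 81.3, and at a score of at least 100 the nearest one lay 71764 bp away, while for Zfp42 the downstream distance went from 36998 to 1470011 bp. The widest intervals belonged to Esrrb (214.8 kb, of which the gene itself is 160.5 kb) and to Tfcp2l1 (195.2 kb), against a median of 112 kb over all genes. Intervals of 70.8 kb for Zfp42, 82.2 kb for Prdm14, 112.4 kb for Stat3 and 119.5 kb for Tbx3 lay between them. An interval may hold summits inside the gene, which do not end it. There were 6 such summits in Esrrb, 1 each in Prdm14, Lin28a and Stat3, and 0 in the other genes.

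**Figure D3:**
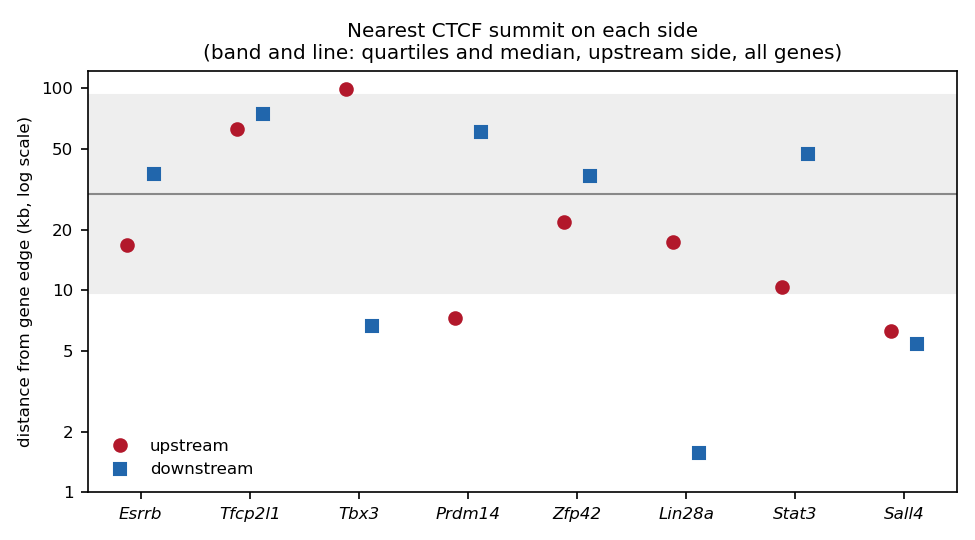
Distance in kb (log scale, y axis) from each gene edge to the nearest CTCF summit outside the gene, upstream (circles) and downstream (squares), for the 8 genes on the x axis; the band and line give the quartiles and median of the upstream distance over all genes. Both Sall4 distances lie under 10 kb, while those of Tfcp2l1 are 63311 and 74653 bp.

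Between its nearest summits on both sides 7 of the 8 genes stood alone, with no other protein-coding gene start. How common this is among all genes was not counted. Stat3 shared its interval with Stat5b and Stat5a, which encode related STAT factors, and the nearest downstream summit of Stat3 lies in an intron of Stat5b. Motif directions could be read at both nearest summits for 3 genes, and they differed in each. The motifs of Tfcp2l1 pointed toward the gene from both sides, an arrangement found in 15.6% of all genes. Those of Esrrb both pointed away from it (13.2% of all genes), and those of Tbx3 pointed the same way (25.4%). Among only the genes with a motif at both summits, these shares were 28.8%, 24.3% and 46.9% in the same order. At the other 5 genes no match at p 1e-05 was found at 1 of the 2 summits. Over all genes 45.8% lacked a match at 1 or both of the nearest summits, or had no summit on a side. At the looser p of 1e-04 the Prdm14 pair could be read and faced the gene from both sides.

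Esrrb, an orphan nuclear receptor that activates many genes of the naive network, held 6 of its 11 summits in its own introns. A summit inside the gene body was found in 4 of the 8 genes, beside 36% of all genes. The Esrrb summit at position 87849735 of chromosome 12 was the tallest of the 76, with a height of 42 and a score of 643.6. It held 59 CTCF tags against 1 IgG tag (ratio 56.2, 9.70 to 2256). Its motif pointed along transcription, and 701 bp before it lay a summit of height 18 with 20 against 3 tags, whose motif pointed against it. Farther along the gene, the motif of a summit of height 16 also pointed against transcription. The others inside Esrrb had heights of 8, 20 and 10, and all 3 summits upstream (heights 12, 10 and 10) had motifs that pointed away from the gene.

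Tfcp2l1, a direct target of LIF signalling, had the lowest density of the 8 genes. Its gene body held no summit, and within 50 kb of the gene there was none. The 2 upstream summits, both of height 13, lay in introns of the neighbour Clasp1, which encodes a microtubule-binding protein. Downstream the nearest, at 74653 bp, had a height of 22, with 30 CTCF tags and no IgG tag, which is at least 9.52-fold higher in the CTCF library when 3 tags are set as the floor.

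Tbx3, a T-box repressor that also acts in limb and heart development, had nearly all of its summits on one side. A single summit lay upstream, at 98801 bp, and 15 lay downstream, between 6689 and 93182 bp from the gene end, all between genes on the way to Tbx5. Over all genes the median was 2 summits in each flank. The downstream heights ran from 8 to 25. The tallest, 56512 bp from the gene end, had 27 CTCF tags and no IgG tag, at least 8.57-fold higher by the same floor. The first 9 of the row lay within 28417 bp of the gene, with heights of 8 to 14, and 4 of them had no motif at p 1e-05. The other 6 began 54736 bp from the gene end, had heights of 10 to 25 and all had a motif. Of the 11 downstream summits with a motif, 6 pointed toward Tbx3 and 5 away from it.

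Prdm14, a PR-domain regulator also needed in germ cells, had 5 summits of heights 10 to 15. A summit of height 15 lay 7279 bp upstream with 15 against 2 tags (ratio 7.14, 1.66 to 64.4) and a motif pointing toward the gene. Another, of height 13, lay in a Prdm14 intron, 9099 bp after the start, with 13 CTCF tags against 1 and no motif match. No motif was found either at the 2 downstream summits, so that 2 of the 5 carried one, the lowest share among the 8 genes.

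Zfp42, a zinc finger gene related to Yy1, had 4 tall summits of similar height and 1 low one. The 3 upstream, at 21850, 26704 and 86210 bp, had heights of 20, 22 and 19. Tags were 24 against 0, 22 against 1 and 22 against 0. The motifs of the nearer pair pointed toward Zfp42 and that of the farthest away. Downstream a summit of height 10 without a motif came first, at 36998 bp and with 10 against 2 tags, and one of height 19 with a motif toward the gene followed at 43289 bp. All 5 lay between genes.

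Lin28a, whose product blocks maturation of let-7 microRNAs, had 7 of its 11 summits upstream. Of these, 5 fell between 60177 and 73718 bp, in and around Aim1l and Cd52, with heights of 19, 24, 17, 7 and 18. The nearest downstream summit, of height 11, was 1572 bp past the gene end and 840 bp from the start of Dhdds, an enzyme of dolichol synthesis. It had 12 CTCF tags against 1 and no motif. Inside the gene, 5524 bp from the start, a summit of height 12 had 13 tags against 0. By the same floor this is 4.13-fold higher (exact lower limit 2.90). A motif was found at 10 of the 11 summits.

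Stat3, the transcription factor activated by LIF, had its tallest summit near the end of the gene. This summit, 45986 bp after the start, had a height of 30, a score of 338.3 and 33 CTCF against 3 IgG tags (ratio 10.5, 3.29 to 53.4), and its motif pointed against transcription. The 8 upstream summits had heights of 6 to 21, and 6 of them did not exceed 9. A summit of height 21 at 43683 bp had 22 against 3 tags and no motif. The 4 downstream summits all lay in introns of Stat5b.

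Sall4, a zinc finger factor that partners with Pou5f1 and Nanog, had its tallest summit 5442 bp past the gene end, with a height of 27 and 29 CTCF tags against 1 (ratio 27.6, 4.58 to 1128). It lay 481 bp from the start of Atp9a, which encodes a lipid flippase, and its motif pointed away from Sall4. The 5 other downstream summits lay in introns of Atp9a with heights of 9 to 15. Nearest upstream was a summit of height 7 with 7 CTCF tags, no IgG tag and no motif. By the same floor it was 2.22-fold higher in the CTCF library (exact lower limit 1.37). Among the summits with a score of at least 100 the nearest upstream lay 74635 bp away.

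A match to the CTCF matrix at p 1e-05 within 150 bp was found at 58 of the 76 summits, which is 76.3% (95% Wilson interval 65.6 to 84.5). Over all summits it was 72.6% (72.2 to 73.1), and 5.55% for positions 2 kb away from them. In the flanks of the 8 genes 29 motifs pointed toward the gene, 23 away, and 15 summits had none. Read from the sequence side, the 8 regions hold 445 matches to the matrix, of which 76 lie in a deposited peak, 17.1% (13.9 to 20.9) against 12.5% (12.4 to 12.6) in the whole genome. The share was 29.3% (19.2 to 42.0) around Tbx3, with 17 of 58 matches, and 9.30% (3.68 to 21.6) around Prdm14, with 4 of 43. Sall4 had the most matches, 91, of which 13 lay in peaks.

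The letters inside the motifs were counted next. CAGAAGAGG is the most frequent set of letters at motif positions 5 to 13 over all summits, and it was picked for that after the data were seen. On the strand of the motif it stood in 24 of the 58 motifs of the 8 regions, 41.4% (29.6 to 54.2), and in 4890 of 24520 over all summits, 19.9% (19.5 to 20.5). It was found in 5 of 9 motifs around Esrrb, 6 of 12 around Tbx3, 5 of 8 around Sall4, 2 of 4 around Tfcp2l1 and both around Prdm14. Around Lin28a it was found in 1 of 10, around Stat3 in 2 of 9 and around Zfp42 in 1 of 4. With so few motifs per gene the intervals of the 8 genes overlap, and a difference between genes was not tested.

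**Figure D4:**
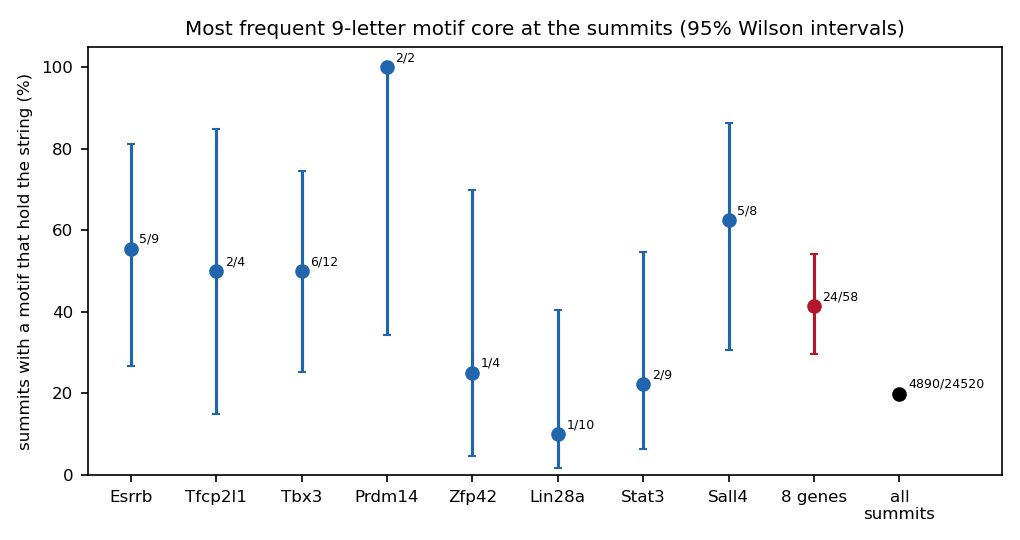
Share of summits with a CTCF motif whose motif holds the letters CAGAAGAGG (y axis, percent) for each of the 8 genes, for the 8 together and for all summits, with 95% Wilson intervals as bars and counts beside the points. The 8 genes together stand at 41.4%, against 19.9% over all summits, and the single genes range from 10% at Lin28a to 100% at Prdm14.

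Motifs with these letters had somewhat lower summits, with a median height of 12 against 14 without them, both in the 8 regions and over all summits, although the tallest of the 76, in Esrrb, carried them. Downstream of the motif, within 20 bases, the letters TGGAGTT followed in 8 of the 24 cases (33.3%, 17.97 to 53.3) and in 16.9% over all summits. They were the most frequent 7 letters at a fixed place after such motifs, and can be read in the Esrrb intron sequence above. After motifs without CAGAAGAGG, TGGAGTT followed in 3 of 34 cases in the 8 regions (8.82%, 3.05 to 23.0) and in 2.82% over all summits. Across the genome 8.04% of matches with CAGAAGAGG lay in a deposited peak, against 14.8% of the matches without it. B2 repeats of the mouse are known to carry CTCF sites, but no repeat annotation was used, so which of these sites lie in repeats was not determined.

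Outside the deposited peaks the CTCF library also held more tags than the IgG library around some of the genes. The depth-scaled ratio was 2.02 (1.82 to 2.25) around Sall4, with 1099 against 518 tags, a value above that of 99.7% of all genes. It was 1.64 (1.47 to 1.84) around Tbx3 and 1.63 (1.47 to 1.82) around Lin28a, above 94.0% and 93.7%. Stat3 had 1.39 (1.27 to 1.52), Prdm14 1.23 (1.11 to 1.36), Esrrb 1.17 (1.08 to 1.26), Tfcp2l1 1.09 (0.995 to 1.19) and Zfp42 1.04 (0.939 to 1.15). The median of all genes was 1.07 and the whole genome outside peaks stood at 0.897, so that 7 of the 8 genes were above the median and Zfp42 below it.

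The sides of the genes were also read apart. Around Tbx3 the ratio was 2.12 (1.81 to 2.49) on the downstream side with the 15 summits and 1.32 (1.12 to 1.57) on the upstream side, and 0.859 (0.536 to 1.37) in the gene body. Sall4 had 2.34 (1.99 to 2.76) downstream and 1.79 (1.54 to 2.09) upstream, and Lin28a 1.58 (1.35 to 1.84) and 1.63 (1.37 to 1.93). In the gene bodies the ratio was 1.80 (1.25 to 2.63) for Sall4 and 2.22 (1.43 to 3.53) for Lin28a. The upstream flank of Stat3 stood at 1.55 (1.34 to 1.79). The IgG library was thin in the same 3 regions, with 244.5 tags per 100 kb around Sall4, 250.4 around Tbx3 and 256.6 around Lin28a, below the 280.3 that marks the lowest quartile of all genes. How far the ratio moves with the low IgG counts or the GC content was not tested.

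**Figure D5:**
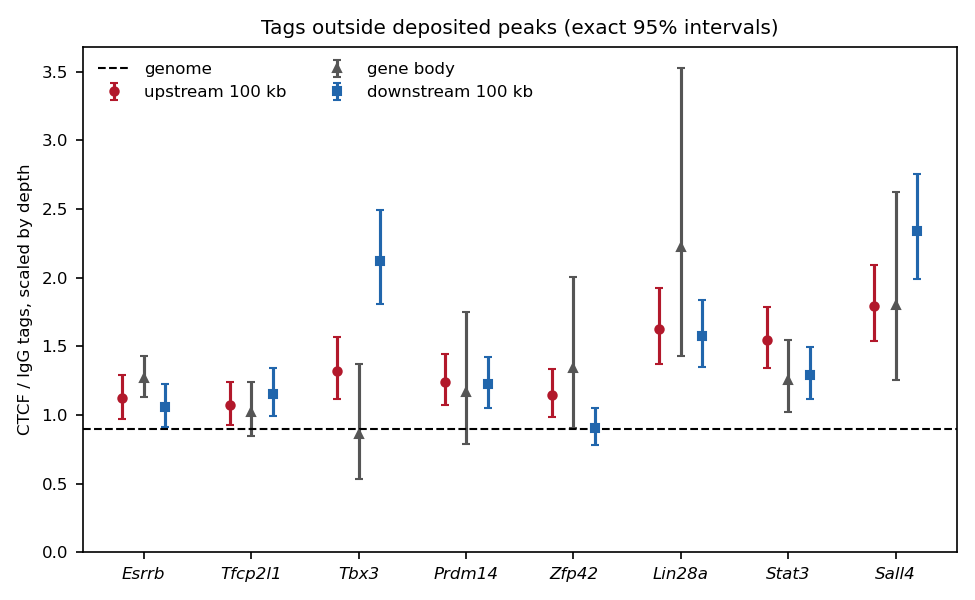
CTCF over IgG tags outside deposited peaks, scaled by depth (y axis), in the 100 kb upstream, the gene body and the 100 kb downstream of each of the 8 genes (x axis), with exact 95% intervals as bars and the genome ratio of 0.897 as the dashed line. Above 1.5 lie all 3 parts of Sall4 and Lin28a, the downstream flank of Tbx3 and the upstream flank of Stat3, and the downstream flank of Zfp42 stands at 0.908.

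The starts of other genes of the network were read in the same way. Of 20 other naive pluripotency genes, among them Nanog, Pou5f1 and Sox2, 0 passed the exact binomial test in either direction after adjustment over all genes, and 1 (L1td1) had a peak within 1 kb of the start. Over all genes 10.1% passed as higher and 10.1% had such a peak. At an unadjusted p under 0.05 in the exact test there were 2, Nanog and L1td1, with 23 against 8 and 9 against 1 tags. The share of all genes under this unadjusted p was not counted, but it is at least the 10.1% that passed after adjustment. Of 8 genes of the LIF pathway, Socs3, the feedback inhibitor of Stat3 signalling, passed with 36 CTCF and 6 IgG tags (ratio 5.71, 2.38 to 16.6, adjusted p 0.000124 in the exact test) and had a peak at its start. Lif itself, the ligand of the pathway, also had a peak there and an unadjusted p of 0.0426 in the exact test, with 15 against 5 tags and an adjusted p of 0.234. Of 8 primed or formative genes such as Fgf5 and Otx2, 0 passed, and 0 had an unadjusted p under 0.05 in the exact test. The median ratios of the 3 lists were 1.71, 2.30 and 1.59, beside 1.60 for the 8 genes described here. The median density in the other naive genes was 3.14 summits per 100 kb, against 1.89 in the LIF pathway and 2.36 in the primed list.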

How the data were processed

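CTCF was mapped by ChIP-seq in R1/E cells with a tagged BAC, with 1 library per antibody. The authors deposited a line for each aligned 35 bp tag with a count of 1, without normalization, on mm9, and for CTCF the MACS 1.4 peaks and summits called against IgG. Peaks carry a score that grows with the −log10 of the MACS p-value (lowest score 50), and the deposited summits come with the signal, the pileup height in tags. The aligner is not given in the sources used here. Depth was 8391191 CTCF and 7988889 IgG tags, and no position was repeated in either library.

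From these files, tags were moved by 93 bp, for a fragment length of 187 bp, and counted in pandas 2.3.3, numpy 2.4.6, numba 0.67.0 and scipy 1.17.1 under Python 3.11.15, and plotted with matplotlib 3.10.9. Ratios are CTCF over IgG tags scaled by total tags, with exact 95% intervals, and shares carry Wilson intervals. Where the IgG library had no tag, 3 tags were set as its floor. A fold value from this floor leaves out the counting error of the CTCF tags, so the exact lower limit stands beside it. A percentage of genes lying below a gene refers to all 22367 protein-coding genes, less those with no value. Gene starts were compared with an exact binomial test, two-sided, adjusted by Benjamini-Hochberg over all genes, at 0.05; other values are descriptions. The authors' peak calls and unreplicated libraries leave any difference between cultures unmeasured, and sites under the score threshold are not listed.

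The 19 bp matrix came from 192 CTCF sequences listed by the study, with a pseudocount of 1, background frequencies of 0.21 per G or C and 0.29 per A or T, and a score threshold of 13.06 for p 1e-05. Motif direction is the strand on which the consensus reads as printed. Sequence was that of mm9 and annotation GENCODE M1, with 1 older symbol matched through RefSeq synonyms. The 8 genes and the lists were chosen with earlier results of these data known. All 8 genes are described, genes of the lists are named where they passed at the start, and neighbours where their start lay between the nearest summits. Nanog, L1td1, Pou5f1, Sox2, Fgf5, Otx2 and the genes that hold or adjoin a summit are named outside this rule. The scripts were tested on simulated data. Alternatives varied the score threshold, flank, window, scaling, minimum count, motif threshold and gene start. Transcript starts and the letters inside the motif were added after seeing the data.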

Additional observations from a re-analysis of the deposited data

How the results depend on the processing

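No paired analysis was possible because each antibody had 1 library. Of 152 alternatives over 51 results, 93 kept the result, 54 moved it, 2 ended a call and 3 turned a direction. Counts and distances were kept when within 1.5 times of the first value, and other ratios and shares when inside its interval. Gene start ratios were kept when their direction and side of the threshold held, whatever their size. In windows of 2 kb the Tbx3 ratio of 3.49, against 11.4, was kept in this sense. When the score had to reach 100, 42 summits were left in place of 76, and the median upstream distance was 42580 bp in place of 17008. Of these summits 90.5% had a motif, against 79.85% of all summits with such a score. Flanks of 50 kb held 44 summits and flanks of 200 kb held 129. At gene starts, windows of 500 bp gave 1067 genes higher and 5 lower, windows of 2 kb 3595 and 139, and genes without a peak in the window 129 and 2, against 2248 and 44. Scaling by tags outside peaks gave 2839 and 17. Of the 8 genes, 0 passed the exact test with windows of 500 bp or among genes without a peak, where Tbx3 lost its call (adjusted p 0.0733 and 0.151). The Tbx3 ratios there were 2.86, by the floor of 3 IgG tags (exact lower limit 1.88), and 11.4. The ratio of Prdm14 turned from 0.952 to 1.27 with 500 bp and to 1.06 with the other scaling, and that of Zfp42 from 1.71 to 0.714 with 500 bp, all within their intervals. The pooled ratio outside peaks was 1.25 with widened peaks and 1.49 with the other scaling, against 1.33. Counting tags within 500 bp of the summits lowered that ratio from 15.7 to 8.41. A motif was found at 85.5% of the summits at p 1e-04 and at 39.5% within 50 bp, against 84.15% and 31.84% over all summits. At p 1e-04, 2 genes had both motifs facing them and 7.52% of the matches lay in peaks. The cause of these shifts was not tested, beyond the fewer peaks, bases or genes that each setting admits.

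Depth limits the values at gene starts. The 8 starts held 67 CTCF and 38 IgG tags together, and single counts of 1 to 16 leave wide intervals. With 1 library per antibody no difference between cultures can be measured, the labels describe the control both as IgG and as input DNA, and the tagged protein is expressed beside the endogenous one.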
